A study of Mus musculus with 26 samples.

Results

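Chromatin Isolation by RNA Purification (ChIRP) of the lncRNA MaTAR25 in 4T1 cells gave 1 peak list for the full set of 14 biotinylated antisense oligos (total pool) and 1 for each set of 7 oligos that make it up (odd pool and even pool, together called the sub-pools). The regions described here are the noncoding total-pool peaks that overlapped no peak of either sub-pool by even 1 bp, called neither-pool peaks. They were taken from the rows annotated as intron or intergenic on the autosomes other than chromosomes 2 and 3, and they number 8358 of 57005 such noncoding peaks (14.7%, 95% Wilson interval 14.4 to 15%) and of 76806 peaks in the total-pool list. The other 48647 noncoding peaks overlapped a peak of the even pool only (27084), of the odd pool only (11605) or of both (9958). Chromosomes 2 and 3 were not used because the even-pool list, as analysed here, has no peak on chromosome 3 and 8877 on chromosome 2, against 4659 and 5666 in the total-pool list.

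The study asked where MaTAR25, a nuclear-enriched lncRNA of mammary tumors, meets chromatin and which genes change without it. 4T1 is a mammary tumor cell line of the BALB/c strain, and the ChIRP cells were wild type, with 2 total-pool, 2 odd-pool, 3 even-pool and 1 Ppib libraries. Ppib oligos, which target the transcript of a housekeeping gene, were the negative control against which all peaks were called, with an enrichment of at least 50-fold. NDL cells (strain FVB) are called primary cells in the labels, with MMTV-PyMT as the genotype, whereas the study names its second ChIRP cells cNeu, an MMTV-Neu-NDL cell line, and which is right was not tested. They had 2 total-pool libraries and 1 Ppib library. RNA-seq compared wild type 4T1 control cells (2 libraries) with MaTAR25 KO1 (3) and MaTAR25 KO2 (4). KO1 and KO2 are single-cell CRISPR/Cas9 clones with a deletion over the transcription start site. The study's control cells received a guide RNA against Renilla luciferase. Control clones were picked by qRT-PCR for a MaTAR25 level like that of the parental line. Each KO genotype is therefore 1 clone, and whether the 2 control libraries share a clone is not stated. Nothing in the labels says that the libraries of a group came from separate cultures, so p-values measure the spread between these libraries only.

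In ChIRP, cells are crosslinked with glutaraldehyde, and oligos that base-pair with an RNA pull down that RNA together with the DNA it touches. An oligo can also pair directly with genomic DNA that resembles its target, and such a site is pulled down whether or not the RNA is there. Splitting the oligos into an odd and an even pool is the usual guard, because a site held through the RNA should be recovered by either set, whereas a site held by 1 oligo should be recovered only by pools that contain it. A neither-pool peak was called with all oligos together and with neither set alone.

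The 5 oligos with the most exact matches in these peaks are shown first, because the results below turn on them, followed by oligo 11, which matched the second-highest peak. Each is 20 bases long and written 5′ to 3′. The capitals mark the bases that lay in the matched run of at least 50% of the neither-pool peaks that match the oligo by at least 12 bases, and every such run includes bases 9 to 12. The first 5 are in the even pool and oligo 11 is in the odd pool.
MaTAR25 oligo 12: aataGGGAGAAGGGAGGctc
MaTAR25 oligo 4: caggtGGTGGAGATGGAatg
MaTAR25 oligo 6: agTCACAGAGAAGGAcggcg
MaTAR25 oligo 2: aagaGTCTGACTTCTTggca
MaTAR25 oligo 14: gGCTTTGGAAATACAttggg
MaTAR25 oligo 11: agaaGGAATGTCACCTGTca

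The sites of these oligos at 7 of the 10 highest-scoring neither-pool peaks are shown next. Each site is the 20-base window of GRCm38 (the sequence that mm10 names) aligned to the oligo, read on the strand that matches it. The capitals mark the longest exact run shared with the oligo, and the names are the gene of the intron or, between genes, the nearest gene.
Trappc9 intron, chr15:72685983-72686002, minus strand, oligo 12: ttgtGGGAGAAGGGAGGCaa
Gm20388 intron, chr8:119970503-119970522, minus strand, oligo 11: aggcGGAATGTCACCTGTCA
near Mir7218, chr17:27389909-27389928, minus strand, oligo 12: gggcaGGAGAAGGGAGGCTg
near Gm37820, chr14:61750863-61750882, plus strand, oligo 12: gacAGGGAGAAGGGAGGCgg
near Gprc5a, chr6:135046404-135046423, minus strand, oligo 4: gcaGTGGTGGAGATGGAAcc
Tmem9 intron, chr1:136031573-136031592, plus strand, oligo 12: tgatGGGAGAAGGGAGGCTa
near Gm23304, chr4:33544880-33544899, plus strand, oligo 12: aactGGGAGAAGGGAGGCTg
The run was 16 bases at the Gm20388 site and 14 or 15 bases at the others.

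Neither-pool peaks were mostly weak. Their median HOMER peak score was 23.5 (95% interval of the median 23.5 to 23.9, quartiles 19.2 and 33.8), against 42 for even-pool-only peaks, 34.5 for odd-pool-only peaks and 104.4 for peaks in both sub-pools. The score is the authors' value over pooled replicates, so it has no error between replicates and is compared only within a list. Over the quartiles of score of all 57005 noncoding peaks, 4743 neither-pool peaks (56.7%) fell in the lowest and 416 (4.98%) in the highest. Their share of noncoding peaks was 2.70% (2.42 to 3.01%) among peaks with a score of at least 100, where 321 remained. Neither-pool peaks were also mostly at the shortest length: 7104 of 8358 (85.0%, 84.2 to 85.7%) had exactly 500 bp, the minimum in every class, against 55.6% of the others.

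**Figure D1:**
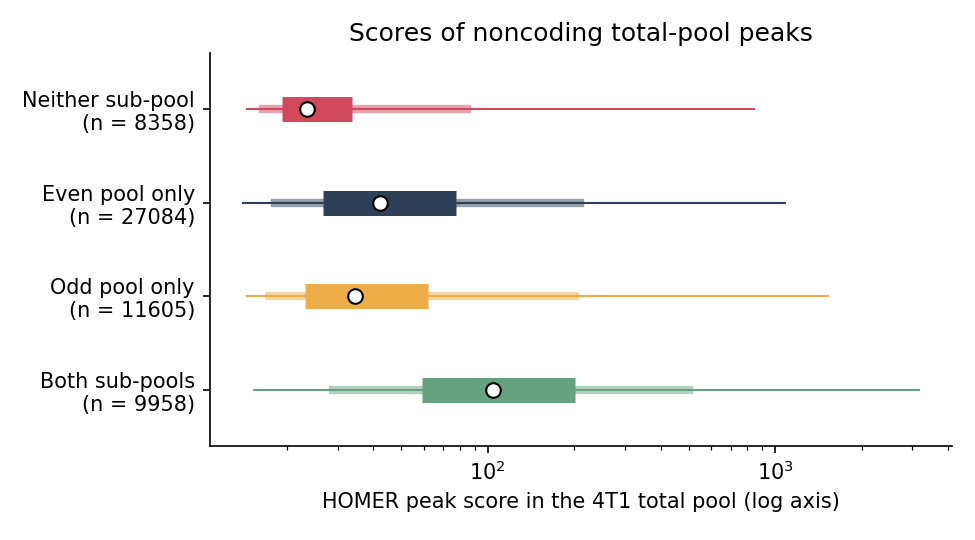
HOMER peak scores (log axis) of noncoding total-pool peaks by their overlap with the sub-pools. White points are medians, thick bars the quartiles, pale bars the 5th to 95th percentiles and thin lines the full range; the neither-pool bar lies lowest, with its median at 23.5 and its top at 844.2.

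The upper end of the neither-pool peaks was not weak. The highest, in an intron of Trappc9 (a subunit of a vesicle-tethering complex) at chr15:72685526-72686404, scored 844.2 and ranked 98 of all 76806 total-pool peaks. Its nearest even-pool peak lay 7989 bp away and its nearest odd-pool peak 8009 bp away. The second, at chr8:119970143-119970914, scored 751.9. It lay 14322 bp from the promoter of Usp10, a deubiquitinase, within an intron of the long gene model Gm20388. The third, at chr17:27389564-27390339 near Mir7218, scored 715.1, and the fourth, in an intron of the ubiquitin ligase gene Rnf165 at chr18:77546220-77547564, scored 605.2. An intergenic peak at chr14:61750592-61751216 scored 589.1, and one upstream of Gprc5a, an orphan receptor gene, at a distance of -19148 bp from its promoter, scored 581.2. A peak in Tmem9, which encodes a lysosomal membrane protein, scored 530.6, and intergenic peaks near 2610300A13Rik and Gm23304 scored 500.8 and 488.2. The tenth, in an intron of Cntn5, a neuronal adhesion gene, scored 460.7. Of these 10 peaks, 5 were intronic, 6 overlapped an NDL peak and 8 held an oligo match of at least 12 bases, 6 of them to oligo 12. The sites of 7 of those 8 are the ones shown above, and that in Rnf165, a run of 15 bases shared with oligo 12, is not printed. The peaks near 2610300A13Rik and in Cntn5 held no such match, and their longest runs were 10 and 9 bases. In all, 20 neither-pool peaks had a score of at least 400, against 1187 of the other noncoding peaks.

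The rule left a wide margin for most members. The gap to the nearest sub-pool peak had a median of 6859 bp (6659 to 7126 bp) and a maximum of 380579 bp. A sub-pool peak lay within 500 bp of 118 neither-pool peaks (1.41%, 1.18 to 1.69%) and within 10 kb of 5282 (63.2%). The nearest sub-pool peak was an even-pool peak for 4287 and an odd-pool peak for 4066. Of the close ones, 101 had an odd-pool peak within 500 bp and 17 an even-pool peak. At the edge of the rule, the closest member, at chr12:107950232-107950731, had a gap of 6 bp and a score of 27.5. The non-member with the smallest overlap, at chr14:8459034-8459533, shared 66 bp and scored 29.

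**Figure D2:**
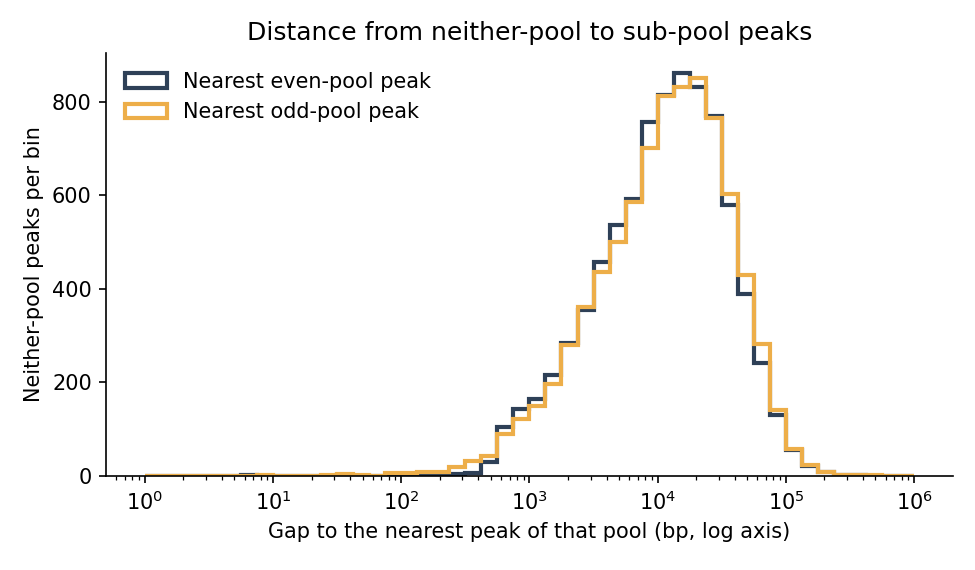
Gap in bp (log axis) from each of the 8358 neither-pool peaks to the nearest even-pool peak and the nearest odd-pool peak, as counts per bin. The 2 curves nearly coincide except below 500 bp, where 101 members had an odd-pool and 17 an even-pool peak.

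Sharing with NDL cells, which the rule did not use, was lower than for the other noncoding peaks. Of the neither-pool peaks, 3514 of 8358 (42.0%, 41.0 to 43.1%) overlapped an NDL total-pool peak. The share was 70.7% for even-pool-only, 61.3% for odd-pool-only and 80.2% for peaks in both sub-pools, or 70.4% over all others. The difference from all others was -28.4 percentage points (95% Newcombe interval -29.5 to -27.2). These intervals cover counting error over peaks only, since the replicates were pooled before peaks were called. Regions of the same length 10 kb away overlapped an NDL peak in 3.67% (3.29 to 4.10%) of cases, so the neither-pool share was 11.4 times that of its surroundings.

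The lower sharing was present in every score quartile. In the lowest score quartile 29.8% (28.5 to 31.1%) of neither-pool peaks overlapped an NDL peak, against 47.5% of the others, a difference of -17.8 points (-19.4 to -16.1). In the highest quartile the shares were 68.8% (64.1 to 73.0%) and 83.1%, a difference of -14.3 points (-19.0 to -10.0). The differences were -14.5 and -11.6 points in quartiles 2 and 3. Among the classes the odd-pool-only peaks came nearest in the lowest quartile, with 38.5% (36.9 to 40.1%). Weighted over quartiles as the neither-pool peaks are, the difference was -16.0 points. Peak score therefore moved with sharing, and the difference over all peaks was larger than that weighted over score quartiles. The quartiles are broad, the highest running from above 84.8 to 3162, so scores within a quartile were not matched.

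**Figure D3:**
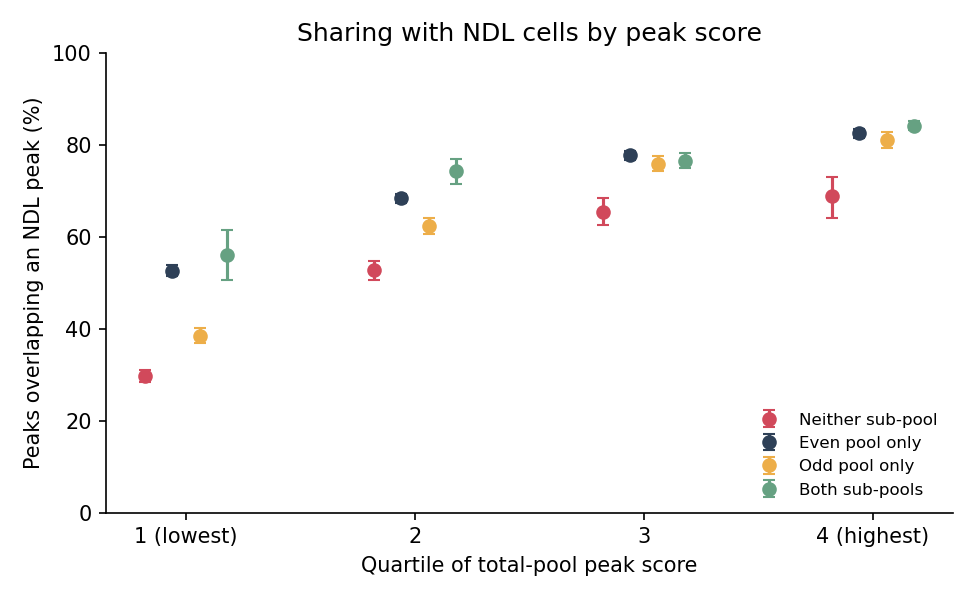
Percentage of noncoding total-pool peaks that overlapped an NDL total-pool peak, by quartile of total-pool score and by overlap with the sub-pools. Points are shares and bars 95% Wilson intervals; the neither-pool points rise from 29.8% to 68.8% and lie lowest in each quartile.

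Where a neither-pool peak did overlap an NDL peak, that NDL peak was weak as well. Its median score in the NDL list was 26.6 (26.2 to 27.2, n = 3514 peaks), against 51.8 (51.2 to 52.5) for NDL peaks under the other noncoding peaks and 38.2 for all 70329 NDL peaks. Intronic neither-pool peaks overlapped an NDL peak in 43.1% and intergenic ones in 41.1% of cases, and the interval of the difference ran from -0.106 to 4.13 points. By chromosome the share went from 34.4% (30.1 to 39.1%) on chromosome 17 to 55.4% (50.2 to 60.5%) on chromosome 18, and on each of the 17 chromosomes it was below that of the other peaks.

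Exact matches to the MaTAR25 oligos were more common in neither-pool peaks than around them, and less common than in the other peaks. A run of at least 12 bases shared with one of the 14 oligos, on either strand, was found in 1010 of 8358 (12.1%, 11.4 to 12.8%). Regions 10 kb to one side held one in 1.23% (1.02 to 1.49%) and to the other side in 1.59%. The shares were 19.8% in even-pool-only, 33.0% in odd-pool-only and 35.2% in both-pool peaks, and the difference from all others was -14.0 points (-14.8 to -13.2). It was smaller within strata of score or length, at -7.29 points weighted over score quartiles, -8.87 points over peaks of 500 bp and -3.41 points (-8.02 to 1.42) in the highest score quartile. The 8 Ppib oligos, used in the control pulldown, matched 0.323% (0.222 to 0.470%) of neither-pool peaks and 0.730% of the regions 10 kb away. For the other noncoding peaks the shares were 0.310% and 0.851%. Peaks were called against the Ppib pulldown, so sites that it recovers were left out beforehand, and this share is no control of specificity. Matches of at least 14 bases were present in 1.10% of neither-pool peaks and 0.0838% of those regions. A run of at least 10 bases was present in 52.5% and 20.9%. A match describes the sequence only, and whether an oligo paired with it was not tested.

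The matches fell on the even-numbered oligos. A match to an even-numbered oligo was present in 877 neither-pool peaks (10.5%, 9.85 to 11.2%) and to an odd-numbered oligo in 139 (1.66%, 1.41 to 1.96%), with 6 peaks holding both. In the regions 10 kb away the shares were 0.634% and 0.610%, so the neither-pool shares were 16.5 and 2.73 times these. In peaks that only the even pool recovered, 19.5% matched an even-numbered and 0.288% an odd-numbered oligo, and in peaks that only the odd pool recovered 2.06% and 31.3%. Both-pool peaks held 25.7% and 10.6%. Over all scores, the neither-pool peaks thus carried even-numbered matches at a level between the odd-pool-only and the even-pool-only peaks. They did so without having been called in the even pool. In the lowest score quartile the even-numbered share differed from that of all others by -0.467 points (-1.37 to 0.471). In the highest it differed by 3.04 points (-1.39 to 7.76). The odd-numbered share was lower than that of all others in every quartile. The difference was -7.69 points (-8.32 to -7.05) in the lowest and -6.85 points (-8.61 to -4.29) in the highest. The even pool had 3 libraries and the odd pool 2, and the part of this in the result was not tested.

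Oligo 12 alone matched 308 neither-pool peaks (3.69%, 3.30 to 4.11%). Oligos 4, 6, 2 and 14 followed, with 136 (1.63%), 132 (1.58%), 109 (1.30%) and 103 (1.23%), and oligos 8 and 10 matched 51 and 43. Each of the 7 odd-numbered oligos matched 28 peaks or fewer. Oligos 1 and 13 matched 9 and 5 peaks, and for both the interval held the share in the regions 10 kb away (0.0718%). The leading oligo differed by class. Oligo 12 was found in 11.3% of even-pool-only peaks, oligo 11 in 6.90% of odd-pool-only peaks and oligo 4 in 12.9% of both-pool peaks.

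**Figure D4:**
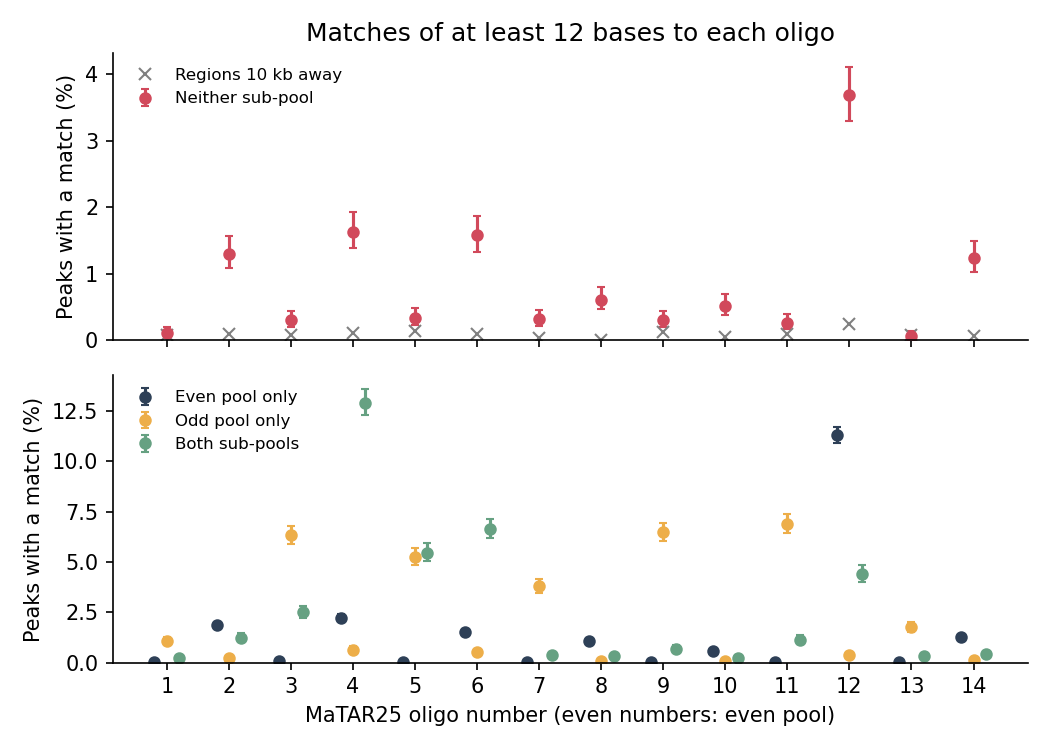
Percentage of peaks with an exact run of at least 12 bases shared with each of the 14 MaTAR25 oligos, with 95% Wilson intervals; the 2 panels have different vertical scales, both from 0. In the upper panel the neither-pool peaks stand above the regions 10 kb away mainly at even-numbered oligos, with oligo 12 at 3.69%.

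Matches went with the score, in neither-pool peaks as in the others. From the lowest to the highest score quartile the share went from 8.48% to 38.0% in neither-pool peaks and from 16.6% to 41.4% in the others. The share of neither-pool peaks with a match was 25.8% at a score of at least 50, 41.7% (36.5 to 47.2%) at 100 and 59.3% (49.8 to 68.1%, 64 of 108) at 200. In the highest score quartile the difference from even-pool-only peaks was 2.65 points, with an interval from -2.05 to 7.55, whereas the difference from odd-pool-only peaks was -13.9 points (-18.9 to -8.62). Neither-pool peaks with a match overlapped an NDL peak in 49.7% (46.6 to 52.8%) of cases and those without in 41.0% (39.9 to 42.1%), a difference of 8.71 points (5.44 to 12). Within each score quartile the interval of this difference included 0.

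TGG repeats were rarer than in the even-pool peaks. TGG repeated at least 4 times, on either strand, lay in 184 neither-pool peaks (2.20%, 1.91 to 2.54%), the longest of 23 units. The share was 0.503% in the regions 10 kb away, 6.67% in even-pool-only, 0.681% in odd-pool-only and 3.31% in both-pool peaks. GGTGG, the motif the study ascribes to the MaTAR25 partner protein PURB, was present on at least one strand in 77.3% (76.4 to 78.2%) of neither-pool peaks and 66.5% of the regions 10 kb away, and a TGG repeat contains it. Odd-pool-only peaks held it in 67.0%, and the difference from all others was 0.0352 points (-0.947 to 0.996). Perfect tandem repeats of any unit of 1 to 6 bases, at least 24 bases long, were less common than around the peaks, at 9.93% against 13.5%. The GC content had a median of 44.8% against 43.2% in the regions 10 kb away.

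The positions of neither-pool peaks resembled those of other noncoding peaks. Introns held 4072 (48.7%, 47.6 to 49.8%) and intergenic DNA 4286, and the intronic share differed from that of the others by 0.620 points (-0.539 to 1.78). The median distance to the nearest promoter was 17259.5 bp (16615 to 17856 bp), against 18474 bp (18137 to 18747 bp). A promoter lay within 10 kb of 35.2%, a difference of 1.77 points (0.666 to 2.88). Although annotated as intron or intergenic, 453 neither-pool peaks (5.42%) touched an exon of GENCODE vM21 by at least 1 bp. The share was 4.62% for the others, a difference of 0.799 points (0.296 to 1.34). By chromosome the neither-pool peaks made up from 13.2% (12.1 to 14.4%) of the noncoding peaks on chromosome 12 to 16.6% (14.9 to 18.3%) on chromosome 19. The nearest gene was protein coding for 3966, a processed pseudogene for 1381 and a lincRNA for 1022 of the 8335 that matched a gene.

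The intronic peaks were spread thinly over many genes. In 2827 genes an intron held a neither-pool peak, and in 2110 of them it was a single one. The most lay in Gm20388, a gene model of 4434.9 kb on chromosome 8 that spans many other genes, with 16 of its 74 noncoding peaks (21.6%). Auts2, a neurodevelopmental gene, had 9 of 50, Magi2, which encodes a synaptic scaffold, 9 of 37, and Wwox, an oxidoreductase gene at a fragile site, 9 of 51. Grik4, a kainate receptor subunit gene, had 9 of 29 (31.0%), at scores from 15.7 to 128.3. Of these, 6 of 16 peaks in Gm20388 overlapped an NDL peak, as did 5 of 9 in Auts2, 6 of 9 in Magi2, 2 of 9 in Wwox and 5 of 9 in Grik4. All but Grik4 are longer than 500 kb. Genes longer than 500 kb held 14.2% of the intronic neither-pool peaks and 15.9% of the other intronic peaks.

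Among synaptic and axonal adhesion and receptor genes, mostly very long, 40 of the 46 on these chromosomes had a neither-pool peak in an intron, most in Magi2 (9) and Pcdh15, a cadherin of hair cells (8). In all they held 168 of 1170 noncoding peaks, or 14.4%, near the 14.7% of all noncoding peaks. Among focal adhesion and actin linkage genes, 16 of 31 had one, led by Itgb3, an integrin subunit gene (3), and Diaph3, a formin gene (2), and the list held 23 of 131 (17.6%). Among the ChIRP targets that the study names, 5 of 9 had one, with 3 in the transcriptional repressor gene Zhx2 and 2 in the lncRNA gene Pvt1, and the list held 8 of 59 (13.6%).

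The RNA-seq libraries held between 25367211 and 61110585 counts on genes. MaTAR25 (annotated as 1200007C13Rik) was counted 35 and 30 times in control and 0 to 11 times in the 7 KO libraries, and the groups did not overlap (log2 fold change -2.63, SE 0.82, edgeR adjusted p = 0.0561). CPM values are counts scaled to each library's size after edgeR's TMM normalization, not to its raw total. All 6 mammary epithelium markers were well expressed in the control libraries, from 126 CPM for Krt19 to 1136 CPM for Krt18. Of the markers of other cell types only Pdgfra exceeded 1 CPM there, at 21.8 and 17.7 CPM. Cdh1, which encodes E-cadherin, was the only one of the 6 epithelial markers that passed the test between KO and control (log2 fold change -0.65, SE 0.21, edgeR adjusted p = 0.0684). Krt7 had 767 and 812 CPM in control and between 651 and 3348 CPM in KO (log2 fold change 1.18, edgeR adjusted p = 0.247), and Krt8 had 452 and 412 CPM in control and between 411 and 1411 CPM in KO (log2 fold change 0.92, edgeR adjusted p = 0.16). The fitted log2 fold changes of Epcam (-0.43), Krt18 (-0.26) and Krt19 (-0.09) were negative and did not pass (edgeR adjusted p = 0.532, 0.645 and 0.904). At an unadjusted p below 0.05, 1 of the 6 epithelial markers was higher and 1 lower in KO. Of the 3 other-cell markers tested none passed in edgeR, none had an unadjusted p below 0.05, and DESeq2 called none.

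Genes next to neither-pool peaks changed between KO and control as often as all genes. With edgeR's quasi-likelihood test and a Benjamini-Hochberg threshold of 0.1, 3392 of 15023 genes tested were called (22.6%), with 11.9% higher and 10.7% lower in KO. Of the 6424 genes nearest to a neither-pool peak, 2028 (31.6%) passed the filter on low counts, and 458 of these (22.6%, 20.8 to 24.5%) were called, 208 higher (10.3%) and 250 lower (12.3%). For the genes nearest to other noncoding peaks only, 979 of 4366 (22.4%) were called. Of the 2827 genes with a neither-pool peak in an intron, 1604 passed the filter and 342 (21.3%, 19.4 to 23.4%) were called, 135 higher (8.42%) and 207 lower (12.9%). Genes with only other peaks in their introns had 23.0% called, 10.5% higher and 12.5% lower. With 1 of the 2 control libraries left out, the other is alone in its group and is assumed to vary like the KO libraries. Without control replicate 1 there were 462 calls in all and 2.22% near neither-pool peaks, and without control replicate 2 there were 574 and 3.09%, beside 2.95% and 3.61% of all genes.

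Genes to name were taken from the called genes nearest to a neither-pool peak. They had to average at least 1 CPM over all libraries, with every KO library on the same side of both controls. The 3 that rose most were Gcnt1, Gmfg and Pcsk6, and the 3 that fell most were Dapk1, Man1c1 and Ildr1. Their neither-pool peaks were weak: the 8 peaks scored from 17.7 to 31, 2 of them overlapped an NDL peak, and 1 held an oligo match of 12 bases, to oligo 2 in an intron of Gmfg.

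Dapk1, a calmodulin-regulated kinase linked to cell death, fell the most. Its level was 41.4 and 36.4 CPM in the control libraries, 0 in the 3 KO1 libraries and 0.139, 0.0842, 0 and 0.409 CPM in the 4 KO2 libraries (log2 fold change -8.65, SE 1.10, edgeR adjusted p = 0.00181). The neither-pool peak nearest to it, at chr13:60669091-60669590 within an intron, scored 18.8. Man1c1, which encodes a Golgi mannosidase of N-glycan processing, had 24.8 and 20.2 CPM in control, 0.271, 0.464 and 0.135 in KO1 and 6.16, 0.969, 1.31 and 0.347 in KO2 (log2 fold change -4.03, SE 1.03, edgeR adjusted p = 0.027). KO2 replicate 1 was the highest KO library and still below both controls, and without it the log2 fold change was -5.27. Ildr1, a tricellular junction receptor gene, had 3.97 and 5.86 CPM in control and between 0 and 1.39 CPM in the 7 KO libraries (log2 fold change -3.95, SE 1.35, edgeR adjusted p = 0.0758).

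Pcsk6, a secreted proprotein convertase gene, had 0.241 and 0.732 CPM in control, 20.1, 17.8 and 9.74 in KO1 and 11.4, 9.26, 24.5 and 6.09 in KO2 (log2 fold change 4.87, SE 0.76, edgeR adjusted p = 0.0039). Its 2 neither-pool peaks, at chr7:65985689-65986317 in an intron and chr7:65849950-65850449 upstream, scored 23.9 and 18.8. Gcnt1, which encodes a branching enzyme of O-glycans, had 0 and 1 counts in control and from 4 to 263 in the KO libraries. The ratio of summed counts was 252, with an exact counting interval from 45.1 to 9963, which leaves out the spread between libraries. The fitted log2 fold change was 7.67 (SE 1.79, edgeR adjusted p = 0.0188). KO2 replicate 4 was the lowest KO library, at 0.0818 CPM against 1.81 to 6.65 in the others. Gmfg, an actin regulator of the glia maturation factor family, had 2 and 1 counts in control and from 4 to 164 in KO, a ratio of 44.2 (15 to 215, counting error only). Its fitted log2 fold change was 5.30 (SE 1.60, edgeR adjusted p = 0.0506). Every KO library was on the same side of both controls for each of the 6 genes, which the rule for naming them required. Leaving out control replicate 1 or control replicate 2 ended the calls of Gcnt1 (fitted log2 fold change then 6.64 and 10.09), Gmfg (5.60 and 5.11), Man1c1 (-3.86 and -4.17) and Ildr1 (-4.19 and -3.64) and left those of Pcsk6 (4.28 and 5.86) and Dapk1 (-8.55 and -8.74). Without KO2 replicate 4, the highest KO library for Dapk1, its log2 fold change was -10.12. The call of Ildr1 also ended with DESeq2 (-3.92) and without KO1 replicate 2 (-3.78), KO1 replicate 3 (-3.73) or KO2 replicate 1 (-3.95). With the replicate number as a block, the calls of Gmfg (5.46), Man1c1 (-3.96) and Ildr1 (-3.13) ended too.

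**Figure D5:**
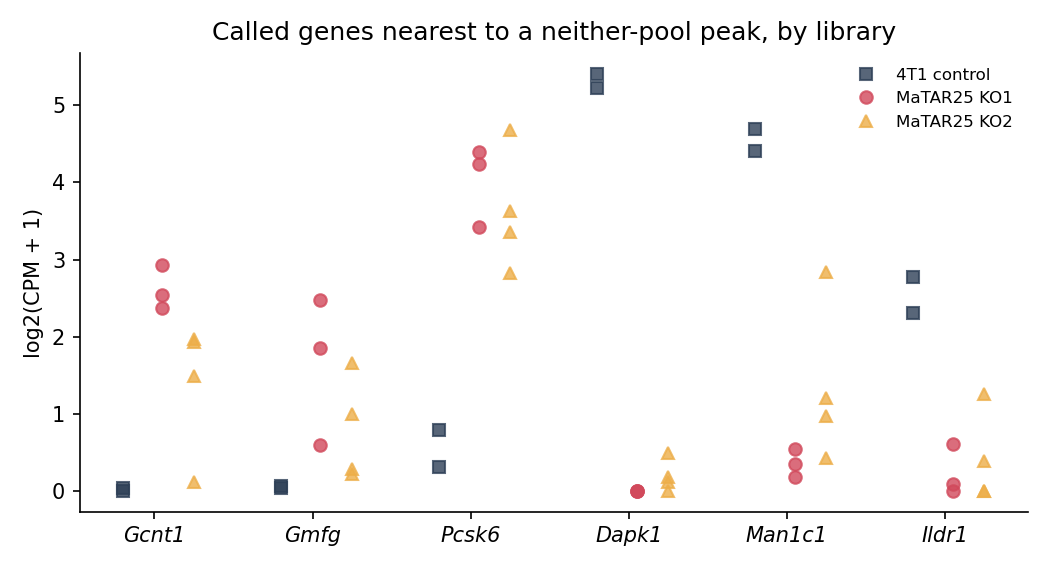
Expression as log2(CPM + 1) of the 6 named genes in each of the 2 control, 3 KO1 and 4 KO2 libraries, 1 point per library. Control and KO points do not overlap for any gene, and the Gcnt1 point of KO2 replicate 4 (0.0818 CPM) and several Gmfg points lie close to the controls.

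Genes at the strongest neither-pool peaks did not pass the test. Trappc9 had 35.6 and 36.9 CPM in control and between 37.9 and 64 CPM in KO, with no overlap (log2 fold change 0.51, SE 0.19, edgeR adjusted p = 0.104). It passed when KO2 replicate 1 (0.58) or KO2 replicate 2 (0.53) was left out, in a fit of 3 groups (0.53) and with DESeq2 (0.51). Usp10 had 151 and 156 CPM in control and 150 to 242 in KO (log2 fold change 0.22, edgeR adjusted p = 0.476), and Gprc5a 98.8 and 89.4 CPM in control and 86.4 to 159 in KO (log2 fold change 0.22, edgeR adjusted p = 0.548). Tmem9 ranged from 32.6 to 92.7 CPM in KO around the controls at 56.3 and 56.1. Rnf165 ranged from 0 to 18.8 CPM in KO with controls at 0.746 and 0.702 (edgeR adjusted p = 0.28). Cntn5, Auts2, Grik4 and Gm20388 were at or below 0.0421 CPM in every library and were not tested. Wwox (edgeR adjusted p = 0.877) and Magi2 (edgeR adjusted p = 0.295) were tested and not called.

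In the lists of genes, 4 of 35 focal adhesion genes tested rose and 6 fell, beside 11.9% higher and 10.7% lower over all genes tested. Itgb3 (edgeR adjusted p = 0.501) and Diaph3 (edgeR adjusted p = 0.231) did not pass. Of the synaptic and axonal genes only 5 of 50 passed the filter, and edgeR called none, none had an unadjusted p below 0.05, and DESeq2 called none. Of the ChIRP targets that the study names, 6 of 9 fell, beside 10.7% of all genes tested. That list was chosen by the study on these samples and is no independent evidence of its direction. Zhx2 had 97.5 and 88 CPM in control and between 26 and 45.2 in KO (log2 fold change -1.47, SE 0.20, edgeR adjusted p = 0.00243), and Pvt1 37.6 and 24.6 in control and between 12.3 and 20.6 in KO (log2 fold change -0.86, SE 0.23, edgeR adjusted p = 0.03). Pvt1 lost its call without control replicate 1 (log2 fold change -0.51) and with the replicate number as a block (-0.89).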

How the data were processed

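The deposited peak lists hold HOMER scores and a distance to the nearest promoter for each peak. To make them, the authors aligned read pairs by Bowtie2 to GRCm38 and ran HOMER on pooled replicates with Ppib libraries as background (histone style, at least 50-fold enrichment), and annotated them with GENCODE vM16. The scale of the score and the depth of the ChIRP libraries are not given in the sources used here, and no test over replicates is possible from the lists. The deposited RNA-seq values are raw counts per gene, which the authors made with STAR and HTSeq. Rows outside genes (33.9 to 37.0% of a library) were left out. KO2 replicate 2 lists each gene several times with the same count, and each was used once. The counting was not stated to use strand, so overlapping and antisense genes are uncertain.

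The neither-pool peaks and the gene lists were chosen with earlier results of these data known. Overlap was at least 1 bp. Shares have 95% Wilson intervals and differences Newcombe intervals, for counting error only. Sequences came from GRCm38, oligos from the study's oligo table and gene positions from GENCODE vM21. Overlap and match scripts were tested on simulated data. Counts were tested with edgeR 4.0.16 in R 4.3.3 (TMM, filterByExpr, quasi-likelihood, 7 KO against 2 control libraries, threshold 0.1) and, as an alternative, DESeq2 1.42.0. The SE given with an edgeR log2 fold change is its absolute value divided by the square root of the F statistic. It therefore restates that test. Peaks were analysed in Python 3.11.15 with pandas 2.3.3, scipy 1.17.1 and numba 0.67.0. Named were the 10 highest-scoring peaks with their genes, the 5 genes with the most peaks in their introns, the 3 genes that rose and the 3 that fell most among called genes nearest to a peak (at least 1 CPM, no overlap of groups), and the 2 genes of each list with the most peaks. Alternatives were a gap of 500 bp, overlap of 50% of the shorter peak, scores of at least 100, other match and repeat lengths and, for counts, RLE factors, no filter, a replicate block, a 3-group fit and each library left out. Added after seeing the data were only peaks of 500 bp and weighting over score quartiles. Input libraries and sites on chromosomes 2, 3, X and Y were not used here.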

Additional observations from a re-analysis of the deposited data

Results flagged for a closer look

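In 17 named genes the 4 KO2 libraries were searched for one standing apart from the other 3, and 2 genes had one. Man1c1 was at 6.16 CPM in KO2 replicate 1, the highest of its group, where the other 3 libraries were between 0.347 and 1.31 CPM, and its log2 fold change between KO and control went from -4.03 to -5.27 without that library. Itgb3 was at 32.7 CPM in KO2 replicate 4, the highest of its group, with 5.65 CPM as the next, and its log2 fold change went from 1.92 to 0.03 without that library. Chance alone flags about 1 in 20 such groups. The cause was not tested.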

How the results depend on the processing

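The number of neither-pool peaks stayed within 1.5 times of 8358 with a gap of 500 bp or a 50% overlap, was 321 at a total-pool score of at least 100 and was 41208 when only sub-pool peaks with a score of at least 100 counted, so membership depends on how weak a sub-pool peak may be. At a total-pool score of at least 100 the NDL share was 68.5%, its difference from the others -15.2 points, the median score 158.9, the oligo match share 41.7%, its difference -2.25 points, the TGG share 3.74% and the intronic share 54.2%. The oligo match share and its difference were 52.5% and -12.7 points with runs of 10 bases, and 1.10% and -3.29 points with runs of 14. The TGG share was 5.95% with 3 units and 0.957% with 6. Over peaks of 500 bp only, the NDL share was 39.4% with a difference of -24.4 points, and the oligo match share 10.4% with a difference of -8.87 points. Weighted over score quartiles, the differences were -16.0 and -7.29 points. No difference changed sign.

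Called genes numbered 1952 with the replicate number as a block, 2738 of the genes without the filter and 4177 with DESeq2, and leaving out 1 library gave 462 to 3976. The percentage called near neither-pool peaks was 26.7 with DESeq2, 11.1 without the filter, 12.8 with the replicate block, 33.8 in the 3-group fit and 2.22 to 26.3 with a library left out. Over all settings, genes with a peak in an intron included, it differed from the percentage of all genes by -1.30 to 0.900 points. Same-numbered libraries did not deviate together (correlations from -0.149 to 0.0429). With 2 control libraries, whose deviations from their mean mirror each other, this check cannot settle whether the numbers pair the libraries. Wwox (main value 0.08) ranged from -0.09 to 0.30 with a library left out and was below 0 without control replicate 1 and, at -0.04, without KO2 replicate 2, and Itgb3 was at -0.63 with the replicate block (log2), none of them called. Of all 238 fits of 17 named genes, 214 kept direction and side of the threshold, 17 lost the call and 4 gained it. The replicate block ended the calls of Gmfg (5.46), Man1c1 (-3.96), Ildr1 (-3.13) and Pvt1 (-0.89). The cause of these changes was not tested. The depth of the ChIRP libraries is unknown, and a site without a sub-pool peak cannot be told apart from one under the calling threshold.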
